A study of Saccharomyces cerevisiae with 18 samples.

Results

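The genes described here are the 10 yeast genes of sulfate uptake and assimilation, namely SUL1, SUL2, MET3, MET14, MET16, MET10, MET5, MET1, MET8 and MET17. They were taken by name and matched to the arrays through their open reading frame identifiers (YBR294W, YLR092W, YJR010W, YKL001C, YPR167C, YFR030W, YJR137C, YKR069W, YBR213W and YLR303W), and all 10 were among the 5826 genes that had a value in every group. Spores of a diploid Saccharomyces cerevisiae of the Y55 background germinated either in 2% glucose alone or in YPD, the rich medium that also holds yeast extract and peptone. RNA was taken in both media at 0 min and at 8 later times up to 128 min (4, 8, 16, then 32, 48, 64, and last 96 and 128 min), which gave 18 groups of 3 two-colour arrays each, apart from glucose at 0 min with 2. On all 53 arrays the time point carried Cy5 and RNA of dormant spores, taken before any medium was added, carried Cy3, so that each value is a log2 ratio of germinating over dormant spores. The labels state that samples hold biological and scan replicates, the study describes biological ones, and the image names carry 53 different slide numbers. The p-values therefore measure the spread between slides, whatever lay behind it.

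Yeast makes its sulfur amino acids from inorganic sulfate. The permeases Sul1 and Sul2 bring sulfate into the cell, ATP sulfurylase (Met3) and APS kinase (Met14) activate it to the sulfate donor PAPS, PAPS reductase (Met16) releases sulfite, and sulfite reductase, a complex of Met5 and Met10 that needs the cofactor siroheme made by Met1 and Met8, turns sulfite into sulfide. O-acetylhomoserine sulfhydrylase (Met17) then builds sulfide into homocysteine, the precursor of methionine and cysteine. The pathway costs ATP and NADPH, and in growing yeast the activator Met4 and its DNA-binding partners hold its genes on when sulfur amino acids are scarce and off when they are plentiful. YPD supplies methionine and cysteine through its peptone, whereas the glucose given here came with no amino acids.

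The arrays set limits that touch several of these genes. Replicate arrays of 16 min and later correlated between 0.64 and 0.94 across all genes, those of 4 min in glucose only between 0.06 and 0.36, and the 2 arrays of 0 min in glucose at 0.23. The labelled cells were checked by 6 of 7 listed dormant-spore genes and 3 of 4 listed growth genes that could be analysed. At 96 min the spore genes ranged from -4.39 to 0.12 relative to dormant spores in glucose and from -7.33 to 0.59 in YPD, with 3 of the 6 higher in glucose, while the growth genes ranged from 0.15 to 2.34 in glucose and from 0.32 to 2.46 in YPD, with none passing the test (0 of 3 had an unadjusted p under 0.05 in limma). The part of that difference between the media in the results below was not tested. In bulk samples such as these, fewer cells of a type and less RNA per cell cannot be told apart.

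Of 530 possible values of the 10 genes, 492 remained after flagged spots were left out, and no spot of them was saturated. In 5 of 180 gene-by-group cells only 1 array was left, among them MET17 in glucose at 96 min and SUL2 in glucose at 0 and 48 min. Signals of MET14, MET16 and MET1 were dim early. At 0 to 8 min in glucose the Cy5 spot of MET14, MET16 and MET1 stood above the local background by 2 SD on 1 of 8 arrays each, and in YPD on 0, 1 and 0 of 9 arrays. The dormant-spore signal of MET14 was above background on 5 of 26 arrays in glucose and on 0 of 26 in YPD, and that of MET16 on 7 of 26 in glucose and 6 of 26 in YPD. That of MET1 was above background on 12 of 26 arrays in glucose and 9 of 27 in YPD, so the ratios of these genes rest on a dim reference on most arrays.

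**Figure D1:**
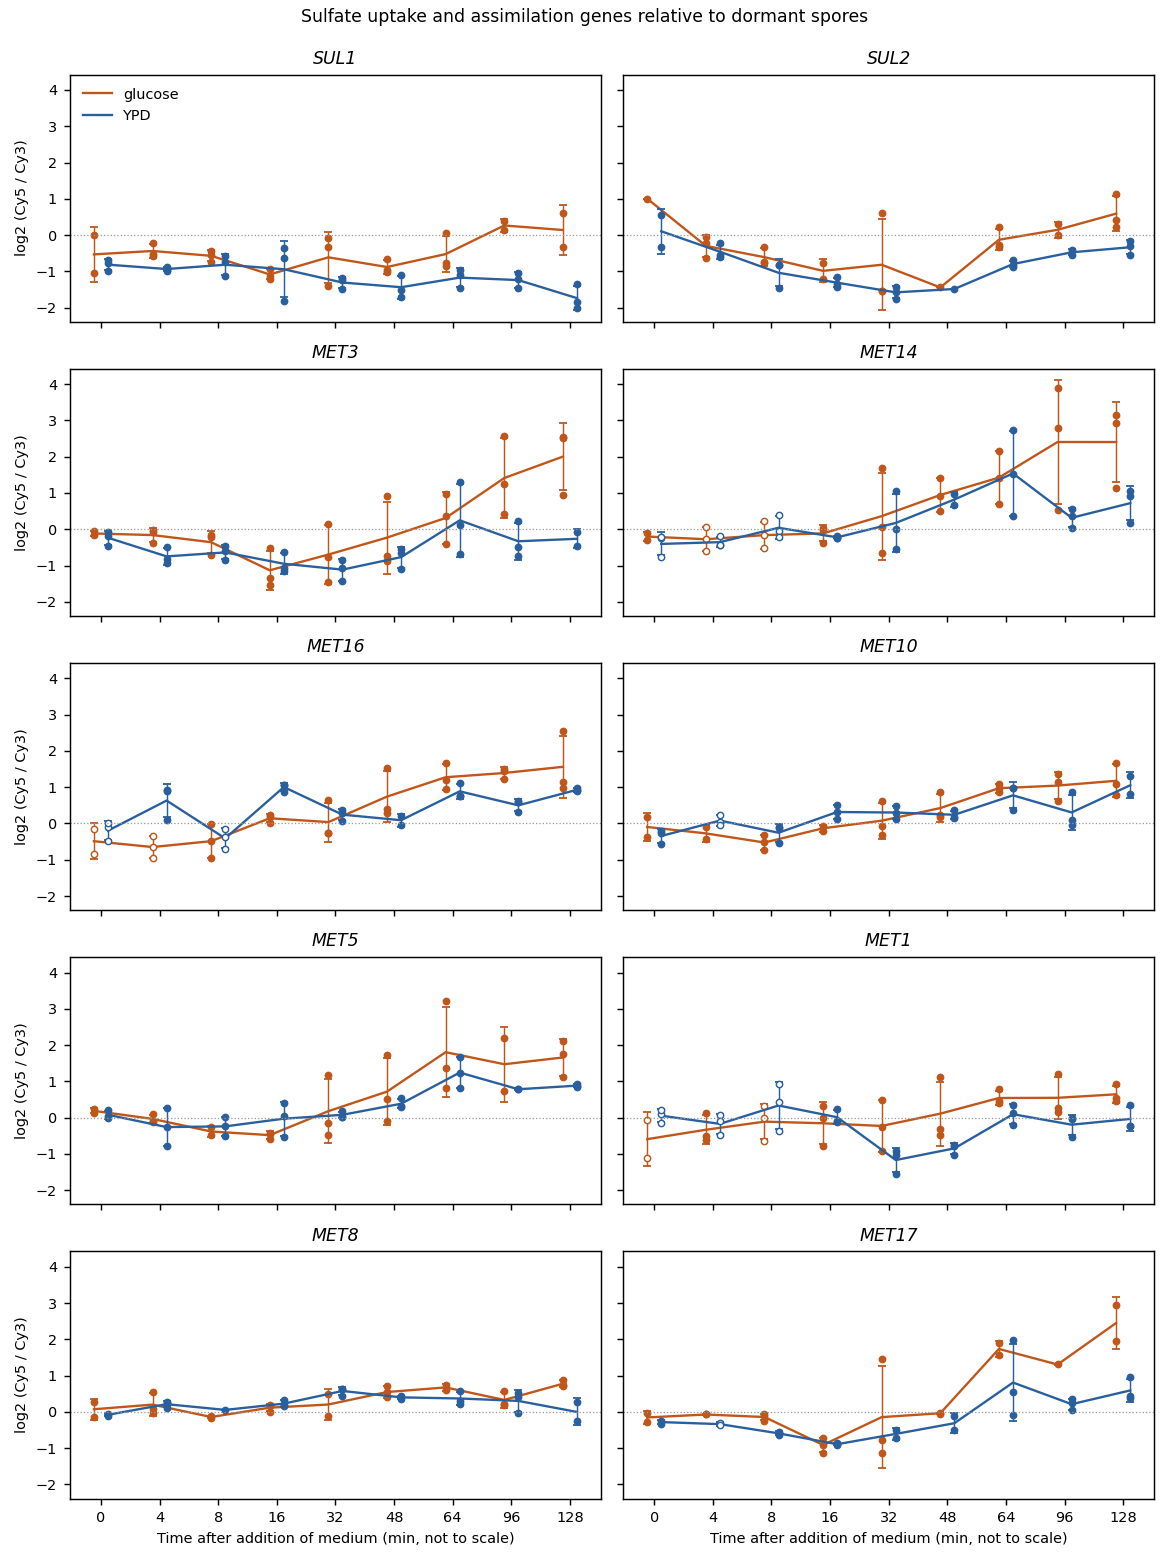
Log2 ratio of germinating over dormant spores for the 10 genes (y axis) against time (x axis, min), with a point for each array, lines through the group means and bars of 1 SD over the arrays, glucose in orange and YPD in blue. Open points mark groups in which no array had the gene's Cy5 signal above background. From 64 min most genes stood higher in glucose than in YPD. MET17, on 2 arrays, MET14 and MET3 in glucose ended with means of 2.45, 2.41 and 2.00 at 128 min.

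The central comparison asked how these genes behaved when glucose was the only nutrient rather than part of a rich medium. SUL1 (uptake), MET3 and MET14 (activation) were higher in glucose at both 96 and 128 min, with differences between 1.51 and 2.27 on the log2 scale. At 96 min 5 of the 10 genes were higher in glucose (SUL1, MET3, MET14, MET16 and MET10) and none lower, where 10.4% of all genes were higher. At 128 min 5 of 10 were again higher (SUL1, MET3, MET14, MET8 and MET17), against 6.57% of all genes. No gene of the pathway passed at 64 min, where 13.5% of all genes were higher in glucose (2 of the 10 had an unadjusted p under 0.05).

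Over 4 to 128 min, 11 of 80 gene-by-time comparisons were higher in glucose and 2 were lower, whereas 8.26% and 5.52% of such comparisons passed over all genes. These calls came from limma, fitted to all 18 groups at once with Benjamini-Hochberg adjustment over 5826 genes and a threshold of 0.05. The median difference of the 10 genes was 0.42, 0.82 and 0.85 for the times of 64, 96 and 128 min, and that of all genes 0.03, 0.02 and 0.03. All 10 differences lay above 0 at 96 and at 128 min, and 9 of 10 did at 64 min. Every glucose array lay above every YPD array for 4, 6 and 9 of the 10 genes at 64, 96 and 128 min, where 20.4%, 20.4% and 18.0% of all genes showed the same. The count of 11 was 2 without YPD replicate 2, which took out 1 array at each time, and 6 without the 11 glucose arrays of a second print layout. When each medium was first set against its own 0 min, 0 of the 80 comparisons passed in limma in either direction, and 15 had an unadjusted p under 0.05. The 0 min arrays of glucose were the 2 with the low mutual correlation.

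**Figure D2:**
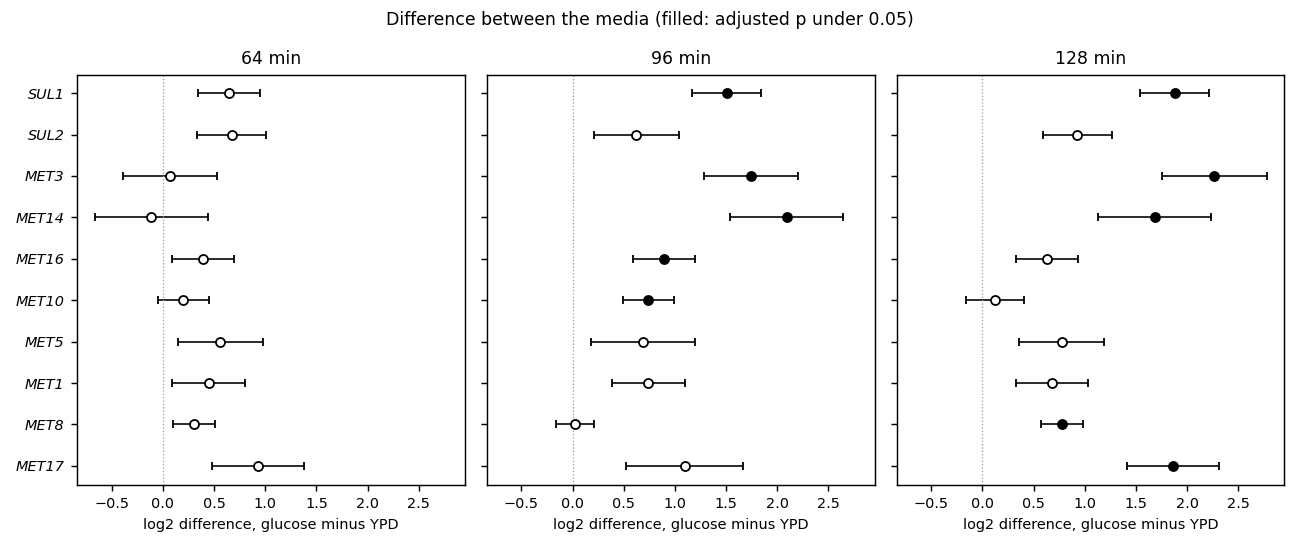
Difference of the log2 ratios, glucose minus YPD (x axis), at 64, 96 and 128 min, as a point for each gene down the page, with the standard error of the fit as bars and filled points where the adjusted p was under 0.05. No point is filled at 64 min, and 5 are filled at 96 and at 128 min, with SUL1, MET3 and MET14 filled at both.

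SUL1, a high-affinity sulfate permease, had mean ratios near 0 in glucose at 96 and 128 min and well below 0 in YPD. Its means at 0 min were already -0.53 in glucose and -0.82 in YPD, so a ratio of 0 was not its starting level. The glucose arrays of 96 min with a value read 0.40 and 0.13, and the 3 YPD arrays read -1.47, -1.05 and -1.21. Those of 128 min read 0.62 and -0.34 in glucose, and -2.02, -1.36 and -1.84 in YPD. The groups were apart at both times, and all 3 YPD arrays lay below every glucose array. SUL1 was higher in glucose by 1.51 ± 0.34 (SE of the fit; 2.84-fold, adjusted p = 0.00139 in limma) at 96 min and by 1.88 ± 0.34 (3.68-fold, adjusted p = 0.000133) at 128 min. Both calls held in 19 of 20 other settings, among them every one that left out a replicate, with differences of 0.86 to 1.65 for 96 min and 1.01 to 2.36 for 128 min. The exception was the comparison set against 0 min, with adjusted p = 0.186 at 96 min and 0.0730 at 128 min.

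SUL1 also differed from its own start in YPD. Its group mean there was -0.82 at 0 min, went through -1.31 at 32 min and reached -1.74 at 128 min, lower than at 0 min by 0.92 (adjusted p = 0.0118). In glucose it was -0.53 at 0 min, with -1.09 at 16 min as the lowest and 0.26 at 96 min as the highest mean, and no time passed the test against 0 min. The glucose arrays of 64 min read -0.86, -0.77 and 0.05, all above the YPD arrays with -1.45, -0.96 and -1.11, but the difference of 0.65 did not pass (adjusted p = 0.136).

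SUL2, the second sulfate permease, had its low point before 64 min in both media. Its lowest group mean was -1.44 in glucose, on a single array of 48 min, and -1.58 in YPD, at 32 min. The glucose arrays of 32 min read -1.53, -1.55 and 0.62, and the YPD arrays -1.56, -1.43 and -1.75. Glucose replicate 3 was far above the other 5 arrays, which lay together. No time passed the test between the media. At 128 min the glucose arrays (0.41, 0.22 and 1.14) all lay above the YPD arrays (-0.16, -0.30 and -0.55), and the difference of 0.93 ± 0.34 missed the threshold (adjusted p = 0.0800).

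The first of the activation genes, MET3, encodes ATP sulfurylase. At 96 min the 3 glucose arrays read 1.24, 0.41 and 2.58 and the 3 YPD arrays 0.24, -0.73 and -0.50. At 128 min the glucose arrays read 2.51, 0.94 and 2.55 and the 2 YPD arrays with a value -0.08 and -0.45. Glucose lay above YPD on every array at both times, although the glucose arrays were themselves far apart, with replicate 2 the lowest at both. The difference was 1.74 ± 0.46 at 96 min (3.35-fold, adjusted p = 0.00620 in limma) and 2.27 ± 0.51 at 128 min (4.81-fold, adjusted p = 0.00213). Each call held in 17 of 20 other settings. Each was lost without YPD replicate 2, at 1.54 with adjusted p = 0.0751 and at 2.08 with a single YPD array left. Both were also lost when set against 0 min (adjusted p = 0.230 and 0.139 in limma). The call at 96 min was lost as well without the second print layout, which held glucose replicate 3 (1.16, adjusted p = 0.0538).

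Before that, MET3 had its low values in both media. It had its lowest group mean in glucose at 16 min, with arrays of -1.33, -1.54 and -0.52, and in YPD at 32 min, with arrays of -0.84, -1.06 and -1.44. Neither low point passed the test against 0 min. At 64 min the media were close, with means of 0.31 in glucose and 0.25 in YPD and a difference of 0.07 ± 0.46 (adjusted p = 0.945). The later means were 1.41 and 2.00 in glucose at 96 and 128 min, and -0.33 and -0.26 in YPD.

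MET14, for APS kinase, was also called at 96 and 128 min and not at 64 min. At 64 min the glucose arrays read 0.70, 1.40 and 2.17 and the YPD arrays 2.73, 1.51 and 0.37, so the groups overlapped fully. At 96 min the glucose arrays read 2.79, 0.54 and 3.89 and the YPD arrays 0.36, 0.03 and 0.55. Glucose replicates 1 and 3 were then far above YPD, while replicate 2 was below the highest YPD array. The difference at 96 min was 2.09 ± 0.55 (4.26-fold, adjusted p = 0.00623 in limma), with the Cy3 signal above background on 0 of the 6 arrays. Leaving out a replicate gave 1.35 to 3.025. It was 1.35 without glucose replicate 3 (adjusted p = 0.0769) and 1.95 without YPD replicate 2 (adjusted p = 0.0536), where the call was lost.

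By 128 min the MET14 arrays no longer overlapped. Those of glucose read 2.92, 1.15 and 3.15 and those of YPD 1.05, 0.93 and 0.18, a difference of 1.69 ± 0.55 (3.22-fold, adjusted p = 0.0434). That call was the less firm of the pair: it held in 9 of 19 other settings and was lost without each replicate of either medium except glucose replicate 2, with values between 1.31 and 2.31.

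MET16, for PAPS reductase, separated the media in both directions, early and late. At 4 min the glucose arrays read -0.95, -0.66 and -0.34 and the YPD arrays 0.10, 0.89 and 0.91, and at 16 min the glucose arrays read 0.01, 0.24 and 0.19 and the YPD arrays 1.06, 0.88 and 1.07. YPD was above glucose on every array at both times. At 4 min the Cy5 signal was not well above background on any of the 3 glucose arrays, nor on 2 of the 3 YPD arrays. The ratios of MET16 were lower in glucose there (adjusted p = 0.00507 in limma, where 6.54% of all genes were lower in glucose). No fold is stated, since most arrays of both groups were dim. At 16 min, with Cy5 above background on all 6 arrays and Cy3 on 0 of them, MET16 was lower in glucose by 0.86 ± 0.31 (adjusted p = 0.0406, against 8.81% of all genes). The call at 16 min held in few other settings: 13 of 20 gave no lower gene of the pathway at that time, and 8 of 20 gave none at 4 min.

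At 96 min MET16 had turned, with 1.5, 1.22 and 1.46 on the glucose arrays and 0.61, 0.31 and 0.59 on the YPD arrays. These were tight groups that stood apart by 0.89 ± 0.31 (1.86-fold, adjusted p = 0.0376). At 128 min the glucose arrays read 2.54, 1.15 and 0.99, with replicate 1 far above the rest, and the YPD arrays 0.99, 0.91 and 0.89. The difference of 0.63 did not pass (adjusted p = 0.209) but did without glucose replicate 3 (0.92, adjusted p = 0.0325). The call at 96 min held in 8 of 19 other settings and was lost without glucose replicate 1 and without each of the 3 YPD replicates (0.80 to 0.98 over all 6).

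Of the sulfite reductase genes, MET10 was called between the media once and MET5 not at all. MET10 (alpha subunit) read 1.15, 0.63 and 1.36 on the glucose arrays of 96 min and 0.86, -0.04 and 0.09 on the YPD arrays. The groups overlapped through YPD replicate 1, and the difference of 0.74 ± 0.25 passed (1.67-fold, adjusted p = 0.0367). It passed in 7 of 19 other settings, and was lost without glucose replicate 1 or 3 and without YPD replicate 2 or 3 (0.57 to 1.02 over all 6). Its means at 128 min were close, 1.18 ± 0.45 in glucose (SD, n = 3) and 1.05 ± 0.37 in YPD (SD, n = 2).

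MET5 (beta subunit) had its highest group means at 64 min in both media. The glucose arrays of that time read 0.83, 3.21 and 1.38, of which replicate 2 was far above the others, and the YPD arrays 1.67, 1.23 and 0.83. At 128 min the glucose arrays (1.76, 1.11 and 2.12) all lay above the YPD arrays (0.85, 0.92 and 0.88). MET5 passed the test between the media at no time, with differences of 0.56 ± 0.41, 0.69 ± 0.51 and 0.78 ± 0.41 at 64, 96 and 128 min (adjusted p = 0.378, 0.398 and 0.276).

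MET1 and MET8 make siroheme, the cofactor of sulfite reductase. MET8 group means stayed between -0.14 and 0.78 in glucose and between -0.08 and 0.58 in YPD. At 128 min its glucose arrays read 0.89, 0.71 and 0.73 and its 2 YPD arrays 0.26 and -0.26, and it was higher in glucose by 0.78 ± 0.21 (1.71-fold, adjusted p = 0.0120 in limma). That call was lost without YPD replicate 2, which left a single YPD array (0.52, adjusted p = 0.371).

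MET1 was higher in glucose at 32 min only, the single call of the pathway at that time, when 13.9% of all genes were higher. Its arrays read -0.92, -0.26 and 0.50 in glucose and -0.92, -1.54 and -1.04 in YPD, with glucose replicate 1 among the YPD values, and the difference of 0.94 ± 0.35 was just inside the threshold (adjusted p = 0.0476). Of the other settings, 12 of 20 gave no call at 32 min. From 64 min every glucose array of MET1 lay above every YPD array, by 0.45, 0.74 and 0.68 on average at 64, 96 and 128 min, none of which passed (adjusted p = 0.421, 0.157 and 0.262).

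MET17, also known as MET15 or MET25, makes homocysteine from sulfide. At 64 min its 2 glucose arrays read 1.57 and 1.90 and its YPD arrays 1.98, 0.54 and -0.09, where YPD replicate 1 overlapped glucose. At 128 min the glucose arrays with a value read 2.95 and 1.95 and the YPD arrays 0.96, 0.37 and 0.44. The difference there was 1.86 ± 0.45 (3.63-fold, adjusted p = 0.00547 in limma) and was lost without glucose replicate 1 (1.36, adjusted p = 0.178) or YPD replicate 2 (1.75, adjusted p = 0.0638).

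At 96 min only glucose replicate 2 kept a MET17 value, 1.31, against 0.05, 0.35 and 0.25 in YPD, and the difference of 1.09 did not pass (adjusted p = 0.202). When flagged spots were kept as well, the same comparison gave 2.01 (adjusted p = 0.000901).

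A second comparison asked which genes had moved since the start of germination in each medium. At 64 min 7 of the 10 genes were higher than at 0 min in glucose (MET14, MET16, MET10, MET5, MET1, MET8 and MET17; 11.8% of all genes), and 5 were in YPD (MET14, MET16, MET10, MET5 and MET17; 22.8% of all genes). At 96 min the counts were 5 in glucose (11.4% of all genes) and 1 in YPD (MET10; 20.2% of all genes), and at 128 min 8 in glucose (11.3%) and 2 in YPD (MET10 and MET16; 18.4%). The 2 media share no 0 min arrays, and whether the counts themselves differ was not tested. Over all 80 comparisons of each medium, 21 were higher and 3 lower in glucose (7.81% and 8.45% over all genes), and 12 were higher and 8 lower in YPD (18.0% and 21.3%).

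**Figure D3:**
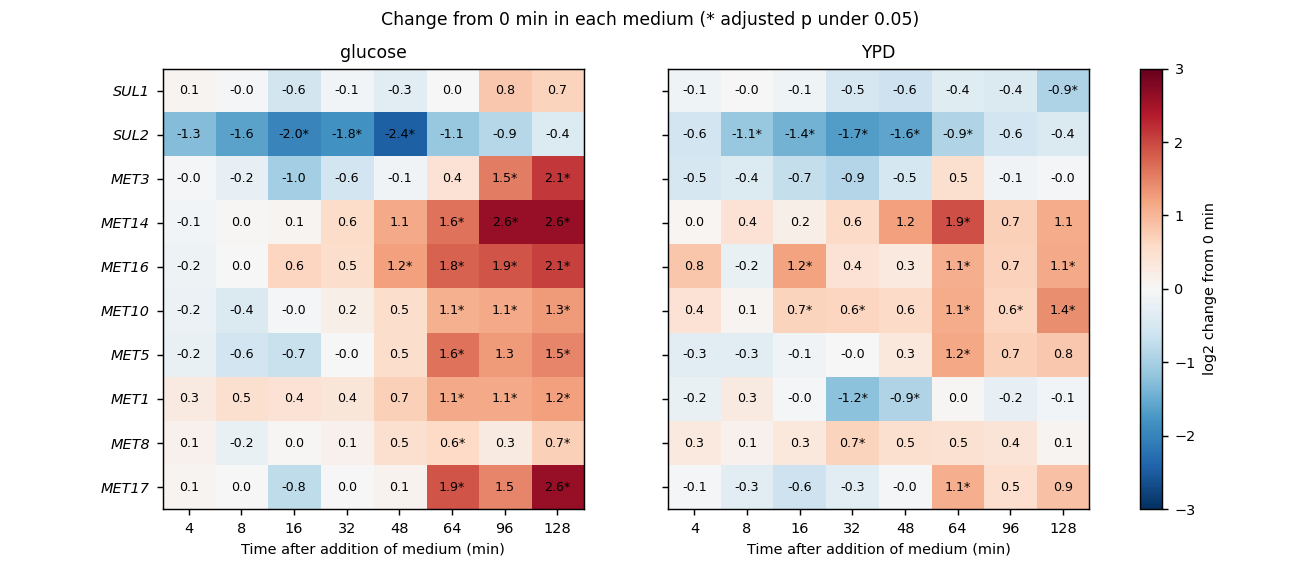
Log2 change from 0 min for each gene (rows) and time (columns, min) in glucose (left) and YPD (right), with the value in each cell, colour by its size and an asterisk where the adjusted p was under 0.05. In glucose the asterisks on rises lie at 48 min and later, 8 of them at 128 min, and in YPD 5 lie at 64 min and 2 at 128 min.

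The sizes of these rises were as follows. In glucose at 128 min, MET3 was higher than at 0 min by 2.12 ± 0.51 (4.34-fold), MET17 by 2.61 ± 0.49 (6.08-fold), MET10 by 1.27 ± 0.28 (2.42-fold) and MET5 by 1.47 ± 0.46 (2.77-fold). MET14 was higher by 2.61 ± 0.62 (6.08-fold, adjusted p = 0.00149), with 1 of the 2 arrays of 0 min above background. MET16 was not well above background on any array of 0 min in either medium. In YPD its ratios were 2.18-fold higher at 128 min than at 0 min (adjusted p = 0.00251 in limma). The Cy5 channel alone gave 2.13-fold, an estimate and not a strict lower bound. In glucose the ratios of MET16 gave a 4.15-fold rise at 128 min (adjusted p = 1.41e-05 in limma). That was smaller than what the Cy5 channel gave, so no Cy5 fold is stated there. MET1, equally dim at 0 min in glucose, had ratios that rose 2.2-fold at 64 and 96 min and 2.36-fold at 128 min (adjusted p = 0.0310, 0.0283 and 0.0177 in limma). At 64 min the Cy5 channel again gave more than the ratios, so no Cy5 fold is stated for MET1. The ratios of MET14 at 64 min in YPD were 3.85-fold higher than at 0 min (adjusted p = 0.00305 in limma). Its Cy5 channel alone gave 2.64-fold.

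MET16 and MET10 were higher than at 0 min in YPD at 16 min. MET16 had already differed by 0.83 at 4 min without passing (adjusted p = 0.0620), and 12 of 20 other settings gave no higher gene of the pathway at that time. The 3 MET16 arrays of 16 min read 1.06, 0.88 and 1.07. The ratios of MET16 were then 2.3-fold higher than at 0 min (adjusted p = 0.00116 in limma), and the Cy5 channel alone gave 2.16-fold. Its mean ratios were 0.24 at 32 min and 0.09 at 48 min, which did not pass the test. At 64 min the mean was 0.89, 2.12-fold higher than at 0 min (adjusted p = 0.00286 in limma), with 2.09-fold from the Cy5 channel. Its Cy3 signal was above background on 3 of 3 arrays at 32 min and 2 of 2 at 48 min, but on 0 of 3 at 0, 16 and 64 min. No fall of MET16 between 16 and 64 min is therefore stated for YPD. In glucose the first call of MET16 came at 48 min, when its ratios were 2.35-fold higher than at 0 min (adjusted p = 0.00958), again with no Cy5 fold stated. MET10 in YPD was higher than at 0 min by 0.66 at 16 min and by 0.65 at 32 min (adjusted p = 0.0272 and 0.0308).

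The genes that went down were SUL2 and SUL1, and MET1 had lower ratios for which no direction is given. SUL2 was lower than at 0 min in YPD at 8, 16, 32, 48 and 64 min, by 1.68 ± 0.38 at 32 min (adjusted p = 0.000393). Its YPD value of 48 min rested on 1 array, and that of 0 min on 2 arrays, which read -0.33 and 0.54. All 3 lower comparisons in glucose, at 16, 32 and 48 min, were of SUL2, but there its 0 min level rested on 1 array that read 1.0. MET1 in YPD had lower ratios at 32 and 48 min than at 0 min, by 1.22 and 0.90 (adjusted p = 0.00388 and 0.0341). Its Cy5 signal was not well above background on any array of 0 min, and the Cy5 brightness alone ran the other way, with a normalized log2 mean of 7.33 at 32 min and 8.30 at 48 min against 6.17 at 0 min. No direction is given for MET1 in YPD at these times.

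Replicate arrays of the same group disagreed in a patterned way, and several genes of the pathway shared the pattern. In YPD at 64 min replicate 1 was high for MET3 (1.3), MET14 (2.73) and MET17 (1.98), and replicate 3 was low for the same genes (-0.69, 0.37 and -0.09). In glucose replicate 2 was the lowest array for MET3 and MET14 at both 96 and 128 min. Glucose replicate 3 was the highest array for both genes at every time from 32 to 128 min. At these times it was the only replicate on the second layout and was quantified on another day than replicates 1 and 2. The part of layout and day in the shared pattern was not tested. Over the arrays of 32 to 128 min, deviations from the mean of the same medium and time correlated at 0.84 between MET3 and MET14 (28 arrays), at 0.81 between MET3 and MET10 (29 arrays) and at 0.73 between MET3 and MET17 (22 arrays).

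SUL1 followed that pattern less, with correlations between -0.10 and 0.39 with the other 9 genes. The median over the 45 pairs of the 10 genes was 0.47, against a median of 0.00 and a 95th percentile of 0.53 over pairs of 2376 genes with a value on all 30 arrays of these times. Values of 1 array share a hybridization, an RNA and a scan, and the deviations within a group sum to 0, so these correlations are descriptions without a test.

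**Figure D4:**
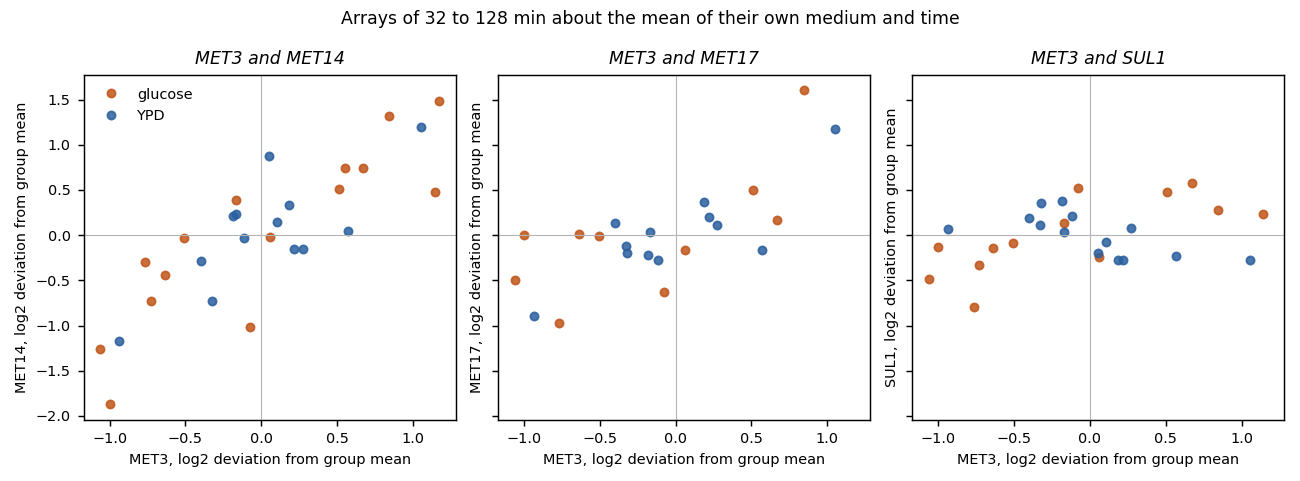
Deviation of single arrays of 32 to 128 min from the mean of their own medium and time, in log2 units, for MET3 (x axis) against MET14, MET17 and SUL1 (y axis), glucose in orange and YPD in blue. MET14 and MET17 spread along the diagonal with MET3 (r = 0.84 and 0.73), and SUL1 less so (r = 0.345).

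Quantification days were uneven between the media. At 96 and at 128 min glucose replicates 1 and 2 were quantified on the day of all 3 YPD arrays, and replicate 3 on another day and on the second layout. Within the shared day at 96 min, glucose minus YPD was 1.51 for SUL1, 1.16 for MET3, 1.35 for MET14, 0.86 for MET16 and 0.59 for MET10. At 128 min it was 1.88 for SUL1, 1.99 for MET3, 1.31 for MET14, 0.80 for MET8 and 1.86 for MET17. All 10 of these differences that had passed kept their direction within the day, with 2 glucose arrays against 2 or 3 of YPD and no test. MET14 and MET10 at 96 min overlapped between the media within the day, and for SUL1 and MET17 the shared day held every late glucose value called. At 4, 16, 32, 48 and 64 min no day held arrays of both media, so day and medium cannot be told apart there. That covers the early MET16 and MET1 results and every difference at 64 min, also those of other sulfur genes. In YPD, only the arrays of 8 min shared a day with those of 0 min. At all other times in YPD, day and change from 0 min cannot be told apart.

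The rest of sulfur metabolism was read from 38 further genes in 5 lists, 34 of which could be analysed. At 96 min 5 of the 34 were higher in glucose and 1 was lower (10.4% and 6.01% of all genes). In the methionine branch 2 of 11 were higher, namely MET6, the methionine synthase that uses the homocysteine made by Met17, and HOM3, aspartate kinase. MET6 read 1.42, 0.61 and 1.18 on the glucose arrays and -1.68, -1.63 and -1.76 on the YPD arrays, a difference of 2.76 ± 0.29 (adjusted p = 2.24e-09 in limma). HOM3 was higher by 1.3 ± 0.32 (adjusted p = 0.00330).

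Among the regulators, 1 of 5 analysed was higher at 96 min: MET32, for a zinc-finger partner that brings Met4 to DNA. It read 2.04, 1.88 and 1.83 in glucose and 0.80, 0.85 and 0.92 in YPD, higher by 1.06 ± 0.20 (adjusted p = 0.000164). MET32 already differed at 64 min, by 1.26 ± 0.20 (adjusted p = 9.10e-06), and MET4 itself was higher at 64 min by 1.03 (adjusted p = 0.00797). MET4, and the genes of 64 min in the next list, were named after their values were seen.

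In the cysteine and glutathione list, 0 of 6 genes passed at 96 min in limma (3 had an unadjusted p under 0.05), while 3 of 6 had been higher in glucose at 64 min (STR2, GSH1 and GSH2), where 13.5% of all genes were. Of 10 transporters and genes for other sulfur sources, the cysteine transporter YCT1 was higher at 96 min by 1.46 ± 0.28 (adjusted p = 0.000254). Its Cy5 signal was above background on 3 of 3 glucose arrays and 1 of 3 YPD arrays, and its Cy3 signal on 1 of 3 and 0 of 3. SAM4, which makes methionine from S-adenosylmethionine and homocysteine, was lower by 0.95 ± 0.16 (adjusted p = 3.21e-05). SAM4 read 0.31, 0.23 and 0.23 in glucose and 1.41, 1.01 and 1.21 in YPD. MET22, the phosphatase that clears the nucleotide left over from PAPS reduction, was higher by 1.15 ± 0.39 (adjusted p = 0.0363), as 1 of 2 cofactor genes analysed.

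**Figure D5:**
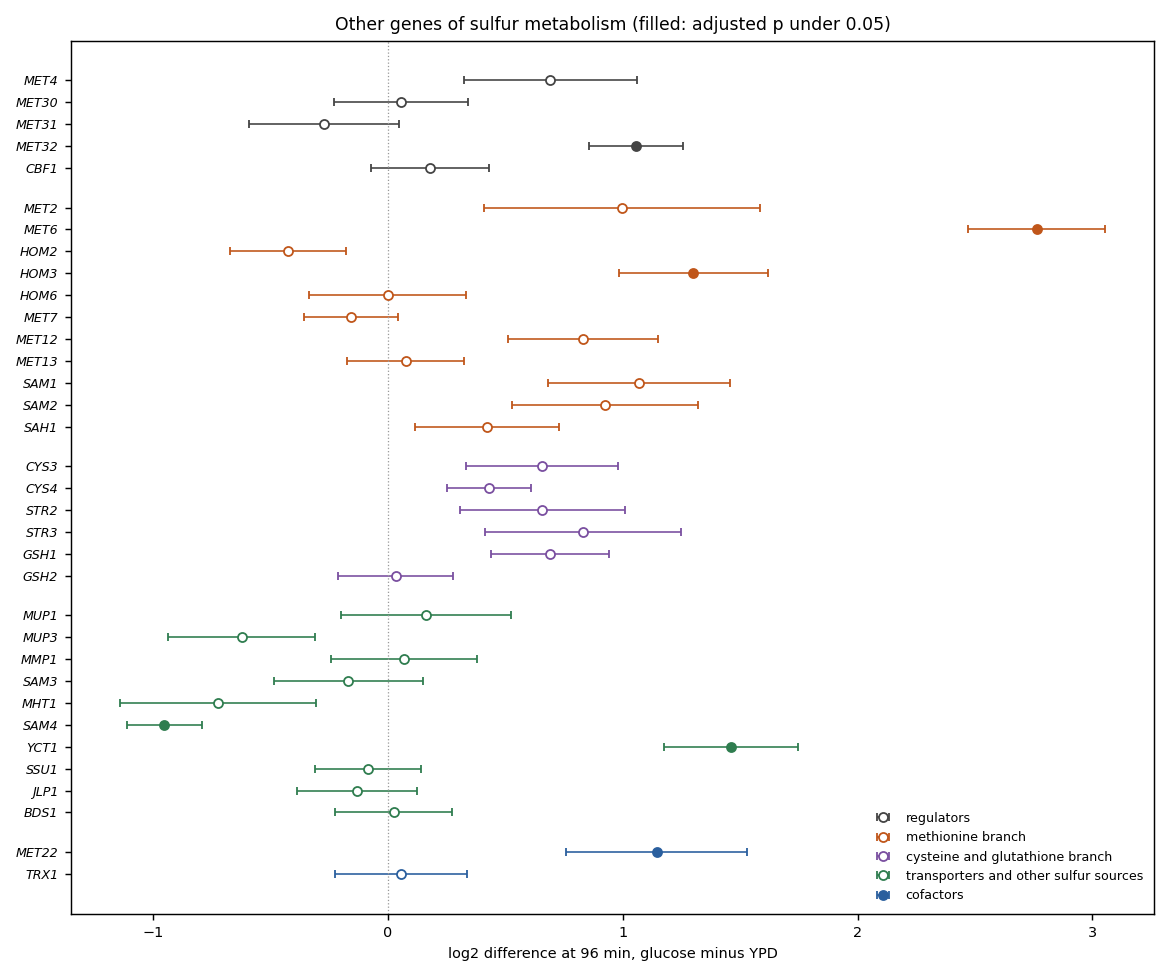
Difference of the log2 ratios at 96 min, glucose minus YPD, for 34 other genes of sulfur metabolism by list (x axis, bars of 1 SE of the fit, filled points where the adjusted p was under 0.05). MET6 stands farthest to the right at 2.76, and SAM4 is the filled point on the left at -0.95.

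Within the pathway, the profile of a gene over the 18 group means was most like the mean of the other 9 for MET17 (Pearson's r = 0.95), MET3 (0.91), MET5 (0.90) and MET14 (0.87), and least for SUL2 (0.43), SUL1 (0.52) and MET8 (0.56). Outside it, the 5 genes whose profiles were most like the mean of the 10 were TAF13, a subunit of the transcription factor TFIID (r = 0.92), YLR302C (0.91), MEP2 (0.86), DAL1 (0.85) and UGA4 (0.85), all across 18 groups that share a reference RNA. YLR302C lies next to MET17 in the R64 annotation, and had means of 1.10, 1.38 and 1.54 at 64, 96 and 128 min in glucose and 0.83, 0.46 and 0.94 in YPD. MEP2, an ammonium permease, DAL1, an allantoinase, and UGA4, a permease for the amino acid derivative GABA, are genes of nitrogen use. The MEP2 means at 64, 96 and 128 min were 1.72, 2.70 and 1.51 in glucose and 0.22, -0.57 and -0.38 in YPD.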

How the data were processed

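The 53 two-colour arrays came as 106 scanner files, 1 for each dye, with spot intensity values that the authors quantified with ImaGene 6.0.1 per the file headers (the study's methods name GenePix Pro). Cy5 carried the time point and Cy3 the dormant spores, per the labels, with no dye swap, and each array correlated positively with the authors' table (lowest 0.397). That table holds mean log2 ratios of 6207 genes, which the authors normalized and averaged before they deposited them, and it served only as an alternative without a test. The members and lists were chosen with earlier results of these data known.

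From signal means and local background medians, normexp correction (offset 50) and loess within each array gave log2 ratios. Control spots and spots flagged 1 or 3 were left out (8.49 to 24.4% of 13056 spots an array), and both spots of a gene were averaged. Median signal over background was 1.39 to 2.51 in Cy3 and 1.66 to 3.77 in Cy5, and the number of arrays limits the precision. The 5826 genes with a value in every group entered limma 3.58.1 (R 4.3.3, statmod 1.5.0; lmFit and eBayes, 18 groups in 1 fit), with Benjamini-Hochberg adjustment within each contrast. The fit was tested on simulated data with independent noise for each gene and array. That test did not cover deviations that genes of an array share. A spot counted as above background where it exceeded the background median by 2 SD. Where no array of a group did, a fold was also taken from the normalized Cy5 channel. It was the bright group's mean over the mean of floored signals in the dim group. The floored signal was, per array, the higher of the dim gene's signal and the lowest signal among genes above background. That floor is a low one, so these folds are not strict lower bounds, and they are open to dye bias. Their p-values are those of the ratios. Against 0 min in glucose some exceeded the fold change of the ratios, so none is stated there. None is stated either where the brighter group was itself mostly dim.

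All 10 genes are named. Of the lists of other sulfur genes, those that passed at 96 min are named, at most 3 in each direction, with the 5 genes most like the mean profile. MET28, GCN4, TRX2, TRR1, HSP12 and RPL3 had no value in some group and were not analysed here. A second print layout (11 glucose arrays) placed other genes on 370 spots, and the files carry 13 quantification days. Alternatives covered background correction, normalization, spot measure, flags, dim spots, left-out replicates, replicate, day and layout as blocks, the samples in the fit and the baseline.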

Additional observations from a re-analysis of the deposited data

How the results depend on the processing

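The main counts were 11 higher and 2 lower in glucose than in YPD, 21 higher and 3 lower than at 0 min in glucose, and 12 higher and 8 lower than at 0 min in YPD. Of the single-gene differences between the media at 64, 96 and 128 min under these alternatives, 490 kept direction and side of the threshold. For the authors' table, which has no test, they kept direction and lay within 1 standard error. A further 53 lost their call, 9 gained one and 31 turned sign. The other 14, all from the authors' table, moved by more than their standard error or turned sign without having passed. Counts that moved by over 1.5 times are given here, and the cause was not tested. Against YPD, the count of lower genes was 0 with no background subtraction, with print-tip loess, with only spots above background and with day as a random block, 1 with plain subtraction, median centring, the signal median or without the second layout, and 4 with layout as a block. The count of higher genes was 7 with only spots above background and 6 without the second layout, and both counts were 0 after subtracting 0 min of each medium. Against 0 min in glucose, the higher count was 12 with plain subtraction, 11 with only spots above background and 9 without the second layout. The lower count there was 1 with no background subtraction, 7 with plain subtraction, 5 with only spots above background, 5 with day or layout as a block, 6 without the second layout and 11 against dormant spores. Against 0 min in YPD, the higher count was 19 with plain subtraction, 5 with the signal median, 7 with only spots above background and 23 with only the groups compared in the fit, and the lower count was 4 with no background subtraction, 3 with day as a block, 14 with only the groups compared and 19 against dormant spores.

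With the replicate number of the files as a block, the count of genes higher in glucose than in YPD was 7 and that of genes lower than at 0 min in glucose 6. MET3 at 64 min then gave -0.388 and MET8 at 96 min -0.038. Same-numbered arrays deviated together by a median correlation of 0.10 in glucose (lowest -0.27) and 0.04 in YPD (lowest -0.34). The file numbers were therefore not taken to pair the samples. The image names carry other replicate numbers. By those the medians were 0.19 in glucose (lowest -0.19) and 0.11 in YPD (lowest -0.22), against -0.12 and -0.04 for arrays of different numbers. Whether the image numbers pair the samples was not tested. Glucose image number 1 was on the second layout and a single quantification day throughout, with file number 1 through 8 min and 3 from 16 min. Leaving out a file number in glucose therefore mixed these series. With the image numbers as a random block, an alternative chosen after seeing the data, the lower count in glucose was 5.

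Leaving out 1 replicate at a time gave counts of 2 to 11 (higher) and 0 to 3 (lower) between the media, 10 to 19 and 0 to 7 against 0 min in glucose, and 5 to 21 and 1 to 10 against 0 min in YPD. The lowest count of higher genes between the media came without YPD replicate 2 and that against 0 min in glucose, 10, without glucose replicate 1. In YPD the higher count was 5 without YPD replicate 1, 7 without YPD replicate 2 and 21 without glucose replicate 3, and the lower count was 1 without YPD replicate 1 or 3, 4 without YPD replicate 2 and 3 without glucose replicate 2. In glucose the lower count was 0 without glucose replicate 2 or YPD replicate 1 and 7 without glucose replicate 3.

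Differences between the media that had not passed turned sign as follows. MET3 at 64 min was -0.025 with no background subtraction, -0.061 with median centring, -0.271 without the second layout, -0.178 with day as a block, -0.197 with layout as a block and -0.053 after subtracting 0 min. MET14 at 64 min was 0.088 and MET8 at 96 min -0.076 with median centring, and MET8 was -0.125 after subtracting 0 min. MET10 at 64 min was -0.034 with print-tip loess and -0.050 after subtracting 0 min. MET10 at 128 min was -0.074 with print-tip loess, -0.400 with the signal median, 0 with day as a block, -0.043 with layout as a block and -0.125 after subtracting 0 min. SUL2 was -0.230 at 64 min and -0.278 at 96 min after subtracting 0 min. Without 1 replicate, the differences that turned sign ranged from -0.405 to 0.593 for MET3, -0.699 to 0.481 for MET14, -0.011 to 0.307 for MET10 and -0.138 to 1.048 for MET5 at 64 min, from -0.041 to 1.421 for MET5 and -0.144 to 0.092 for MET8 at 96 min, and from -0.135 to 0.381 for MET10 at 128 min. Plain subtraction, only spots above background, and leaving out glucose replicate 2, YPD replicate 1 or the second layout gave no value for some genes. Dim Cy5 spots limit MET14, MET16 and MET1 most at 0 to 8 min, and dim Cy3 spots limit their ratios at later times too.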
